A study of Schizosaccharomyces pombe with 4 samples.

Results

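Cytosolic ribosomal protein mRNAs were followed through records that carry a ribosomal protein gene name. A record was taken when 1 of its names was RPL or RPS followed by a number and an optional A or B, or RPP0, RPP1A, RPP1B, RPP2A or RPP2B, and when it held no name of the ribosomal DNA. This rule found 124 members among the 7903 features named in the files, 72 of the large subunit, 47 of the small subunit and 5 of the P-stalk.

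The libraries came from CRAC, in which RNA is cross-linked to a tagged protein by UV light in living cells, purified with the protein under stringent washing and sequenced as cDNA. The cells were the fission yeast Schizosaccharomyces pombe, grown in rich YES medium at 30 °C and irradiated for 3 min. There were 2 untagged control libraries from an h+ strain with the markers ade6-M216, leu1-32, ura4-delta_18 and his3delta_1, and 2 Seb1-HTP libraries from a strain with the same markers and the tagged allele Seb1-HTP::KAN. The series calls the 2 libraries of each kind biological replicates, and the untagged strain gives the background of the purification. Although the material was S. pombe, the deposited records are placed on chromosomes and genes of budding yeast, Saccharomyces cerevisiae. A member below is therefore an S. cerevisiae gene on which reads of an S. pombe library were placed, and its positions are those of the files, whose S. cerevisiae release no source used here gives. Total RNA was not measured beside the cross-linked RNA, so binding and the amount of each mRNA cannot be told apart.

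Ribosomal protein mRNAs are among the most abundant mRNAs of growing yeast and encode the proteins that, with rRNA, build both ribosomal subunits. In both yeasts most of them come from pairs of nearly identical genes, called A and B copies in S. cerevisiae and numbered copies in S. pombe. The coding sequences change between species mostly at synonymous sites, since the proteins are strongly conserved. Seb1 is the fission yeast relative of Nrd1, binds nascent RNA of RNA polymerase II and acts in cleavage and polyadenylation at gene ends.

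The reads on RPL9B, a gene of the large-subunit protein L9, are shown first because their recorded substitutions could be set against S. pombe sequence. Of the 117 RPL9B reads with Seb1-HTP, 95.7% lay in 1 stretch of 40 nt, XIV:500189-500228 on the plus strand, the strand of the gene. The Seb1-HTP 1 library held 72 reads there and the Seb1-HTP 2 library 40, and both controls held 0. The files record where a read differs from the S. cerevisiae sequence but not which base it carries. In Seb1-HTP 1, 91.7% of reads were substituted at 500196 and at 500202, and 91.5% at 500223. In Seb1-HTP 2 these same sites were substituted in 15.4%, 15% and 18.4% of reads. The sites 500205, 500220 and 500226 behaved the other way, with 8.33%, 8.33% and 1.54% of reads in Seb1-HTP 1 and 85.0%, 84.6% and 85.7% in Seb1-HTP 2. Each set travelled as a block within reads. Of the 72 reads of Seb1-HTP 1 that could be assigned, 66 (91.7%, 83.0 to 96.1, 95% Wilson interval) carried the first set alone, 6 (8.33%, 3.88 to 17.0) carried the second alone, and 0 were mixed. Of the 39 of Seb1-HTP 2, 6 (15.4%, 7.25 to 29.7) carried the first set, 32 (82.1%, 67.3 to 91.0) the second, and 1 was mixed. As distinct intervals the first set had 5 and the second 2 in Seb1-HTP 1, against 2 and 5 in Seb1-HTP 2, so the reads repeat few fragments. Position 500227 was substituted in 100% of the reads that reached it in both libraries.

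The S. pombe RefSeq annotation (ASM294v3) lists 2 genes for the same protein, rpl901 and rpl902. Their coding sequences, laid side by side without a gap, have 1 window of 40 nt whose differences fall at exactly the offsets of these 6 sites, and the other 34 bases of that window are the same in both genes. The window covers nt 503 to 542 of each coding sequence, which are 573 and 570 nt long including the stop codon, and lies at I:2283668-2283707 on the minus strand for rpl901 and at III:90282-90321 on the plus strand for rpl902. Both are printed 5′ to 3′ as the coding strand, with the 6 differing bases in capitals, because these bases are what distinguishes the gene copies.
rpl901: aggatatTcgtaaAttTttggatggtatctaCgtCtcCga
rpl902: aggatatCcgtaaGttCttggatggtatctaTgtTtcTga
All 6 differences stand at codon position 3. Of 1723662 pairs of 40-nt windows compared over 62 gene pairs of 52 S. pombe ribosomal protein families, with shifts of up to 30 nt between the copies, this was the 1 pair that differed at just these offsets. The search was made after the sites had been seen, and its windows overlap one another. Which set of sites goes with which gene was not determined, because no bases of the reads are recorded and the S. cerevisiae sequence was not available here. The match is between positions only, and reads on RPL9B were not aligned to S. pombe here.

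RPP0 encodes the central protein of the P-stalk, the flexible arm of the large subunit that recruits translation factors. Its stretch at XII:806765-806814 on the plus strand held 108 reads in Seb1-HTP 1 and 11 in Seb1-HTP 2, and again the libraries carried different sites. In Seb1-HTP 1, positions 806780 and 806792 were substituted in 99.1% of reads each, and in Seb1-HTP 2 in 0% of the 11 reads. In Seb1-HTP 2, position 806777 was substituted in 90.9% and 806783 in 100%, against 0% and 0.926% in Seb1-HTP 1. Both libraries shared 806786, at 100%, and 806798, at 99.1% and 100%. These 6 sites lie at 12, 15, 18, 21, 27 and 33 nt from the first base of the stretch, all multiples of 3. In Seb1-HTP 1, 100% of the reads that reached them were also substituted at 806765, at 0 nt, and at 806814, the last base of the stretch, at 49 nt, which is no multiple of 3. Seb1-HTP 2 had 0 reads over either. RefSeq lists 1 S. pombe gene under the symbol rpp0, so no pair of copies was available to set against the sites.

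**Figure D1:**
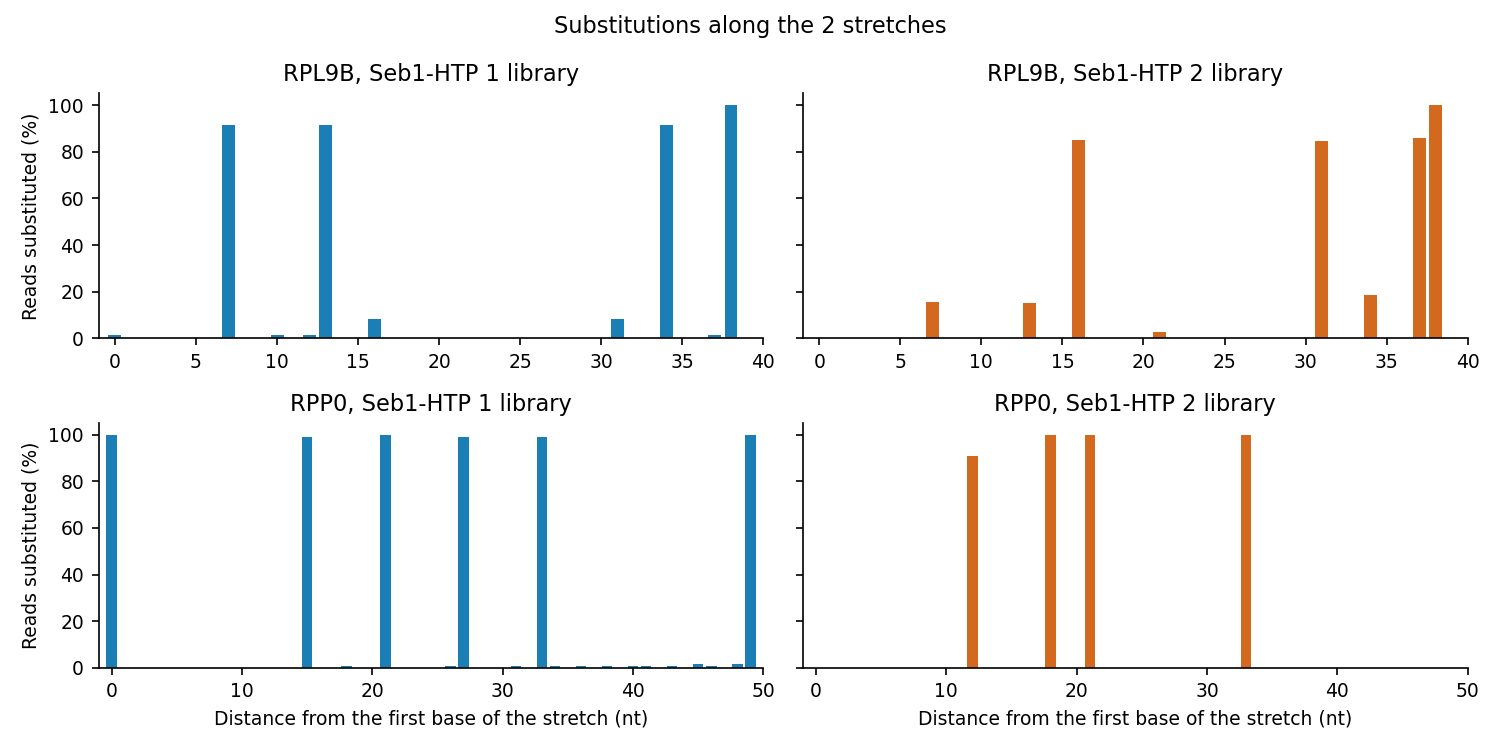
Percent of reads with a recorded substitution at each position of the main RPL9B stretch (top) and the RPP0 stretch (bottom), by distance in nt from the first base of the stretch, in the Seb1-HTP 1 and Seb1-HTP 2 libraries. Positions covered by fewer than 5 reads are not drawn. The 3 tall RPL9B sites at 7, 13 and 34 nt in Seb1-HTP 1 give way to those at 16, 31 and 37 nt in Seb1-HTP 2, and 38 nt is at 100% in both.

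RPS9A, RPL23A and RPL23B carried the same sites in both Seb1-HTP libraries. RPS9A, whose small-subunit protein lies near the path by which mRNA enters the ribosome, was substituted at 404759, 404763 and 404765 of chromosome XVI in 100% of 13 and 17 reads. These RPS9A reads made up 3 and 2 distinct intervals. RPL23A and RPL23B, copies for 1 large-subunit protein, each had 3 positions substituted in most reads of both libraries among those covered by at least 5 reads in each. RPL9B had 1 such shared site among 4 per library and RPP0 had 2 among 4. On the strand opposite to the gene, RPL29 shared both of its 2 sites and RPS30B its 1. RPS4A had 1 site in Seb1-HTP 1 and 2 in Seb1-HTP 2, with 1 shared, and RPL26B had 0 in either library.

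The depth of the libraries sets what can be said about levels. Reads that named a feature numbered 4579 and 45339 in controls 1 and 2, and 268030 and 231656 in Seb1-HTP 1 and 2. Between 0.334% and 4.90% of reads named no feature and were left out. Intervals and limits cover counting error only, since reads that repeat a fragment are not independent molecules. Levels are given as RPM, reads per 1000000 named reads. A count of 0 allows up to 3 reads, or 655 RPM in control 1, 66.2 in control 2, 11.2 in Seb1-HTP 1 and 13.0 in Seb1-HTP 2.

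Control libraries 1 and 2 held 2 and 29 member reads, and Seb1-HTP libraries 1 and 2 held 554 and 903. In RPM these were 437 (120 to 1591) and 640 (445 to 918) for the controls, then 2067 (1902 to 2246) and 3898 (3652 to 4160) for the tagged libraries. The means were 538 ± 143 RPM (SD, n = 2) in the controls and 2982 ± 1295 RPM (SD, n = 2) with Seb1-HTP, a ratio of 5.54, and the groups did not overlap (exact two-sided permutation test, p = 0.333, the smallest that 2 against 2 libraries allow). The value of control 1 rests on 2 reads and is below that library's limit of 655 RPM. As a share of distinct intervals, each chromosome, start, end and strand counted once, members took 0.207% and 0.674% of control intervals and 0.839% and 1.56% of Seb1-HTP intervals. The groups came to overlap when reads naming rRNA or tRNA were taken out of the totals. Members then took 0.445% (0.122 to 1.61) and 1.4% (0.974 to 2.0) of the remaining reads in the controls, against 1.25% (1.15 to 1.36) and 1.76% (1.65 to 1.88) with Seb1-HTP (exact permutation p = 0.667). The 4 stretches with the most reads, on RPL12B, RPS4A, RPP0 and RPL9B, held 73.6% of the Seb1-HTP 1 reads and 22.4% of the Seb1-HTP 2 reads, and without them the ratio of mean RPM was 3.31.

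**Figure D2:**
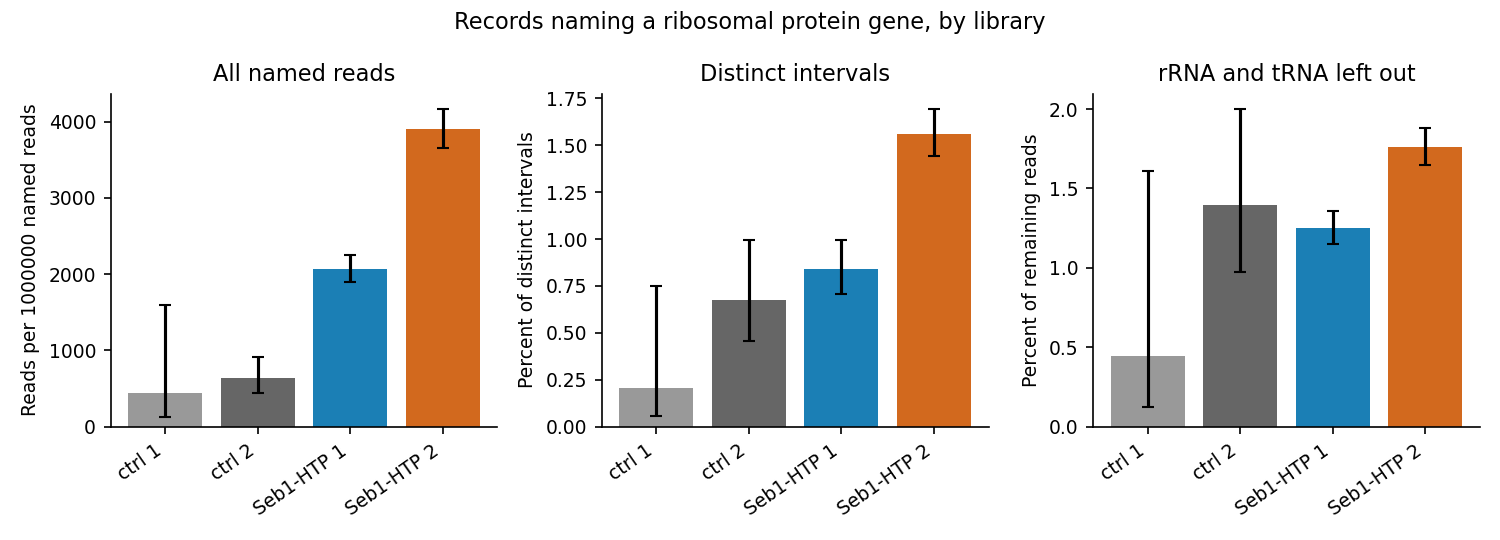
Records naming a ribosomal protein gene in each library (2 untagged controls, 2 Seb1-HTP), as reads per 1000000 named reads, as percent of distinct named intervals, and as percent of named reads once rRNA and tRNA are left out. Bars are library values and lines are 95% Wilson intervals. Both Seb1-HTP bars stand above both control bars in the first panels, and in the last one control 2 (1.4%) stands above Seb1-HTP 1 (1.25%).

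Every member had a read in at least 1 Seb1-HTP library, but few members had many. A gene became a member only when a record named it, and 19 members had a control read. This coverage was therefore largely set by the rule and is no result about binding. With Seb1-HTP 1, 53 members had a read and with Seb1-HTP 2, 121. Of the 124, 50 had reads in both Seb1-HTP libraries and 71 in Seb1-HTP 2 alone, and 100 had fewer than 10 reads over the 4 libraries. These 100 members held 60 of the member reads of Seb1-HTP 1 and 304 of those of Seb1-HTP 2, with at most 9 reads each.

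Large-subunit members gave 70.8% (66.8 to 74.4) of member reads in Seb1-HTP 1, and 47.2% (44.0 to 50.5) in Seb1-HTP 2. RPL12B, whose protein binds rRNA at the base of the P-stalk, had 0 reads in both controls, 218 in Seb1-HTP 1 and 2 in Seb1-HTP 2. Its Seb1-HTP 1 reads all fell in IV:1301716-1301767, in 16 distinct intervals on the gene's strand, and the 2 reads of Seb1-HTP 2 lay elsewhere. RPL12B was at least 7.33-fold higher with Seb1-HTP than the limit of 3 reads over the control group, a bound that fell to 0.144 without Seb1-HTP 1 and to 0.672 without control 2. All 220 reads also named YDR417C, which by its identifier is a frame on the opposite strand.

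RPL9B had 73 reads in Seb1-HTP 1, 44 in Seb1-HTP 2 and 0 in either control, at least 3.90-fold higher over the same limit. The bound was 3.16 without Seb1-HTP 1, 4.53 without Seb1-HTP 2 and 0.357 without control 2. Its bound thus stayed above 1 without either Seb1-HTP library, and its partner RPL9A had 8 and 3 reads. The RPL9B reads repeat few fragments, with 8 and 10 distinct intervals in Seb1-HTP 1 and 2. Members given a bound here were chosen for high mean RPM with Seb1-HTP, which favors a bound above 1, so the bounds are no independent test. The bounds count reads, limit the control count alone and take the Seb1-HTP count as it stands. They were not worked out on distinct intervals, so they do not hold for fragments counted once. RPL26B, whose protein binds near the exit of the nascent peptide tunnel, had 7 reads in Seb1-HTP 1, 58 in Seb1-HTP 2 and 0 in either control, at least 2.16-fold higher, and 0.435 without Seb1-HTP 2 or 0.199 without control 2. Of its reads in Seb1-HTP 2, 45 lay on the gene's strand. Its main stretch, VII:555974-556031, held 43 of them, and 13 reads on the other strand covered the same place.

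RPL23A and RPL23B were alike, with 6 and 14 reads on the A copy and 6 and 15 on the B copy, each on its own strand. RPL15A had 0 and 24 reads with Seb1-HTP, and RPL10, whose protein joins late in assembly, had 0 and 20 with 2 in control 2. Each RPL10 read also named YLR076C, a frame on the opposite strand by its identifier. RPL7B had 1 read in each control, 1 in Seb1-HTP 1 and 16 in Seb1-HTP 2, and 6 of its Seb1-HTP reads also named the small nucleolar RNA snR59. RPL18B was named for 8 own-strand intervals of 35 nt or more, all in Seb1-HTP 2. RPL29 lay mostly on the opposite strand: of its 24 and 10 reads, 0 and 1 lay on the gene's strand, and 33 of the 34 fell in VI:223101-223147 on the opposite one.

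P-stalk members gave 19.7% (16.6 to 23.2) of member reads in Seb1-HTP 1 and 2.76% (1.88 to 4.04) in Seb1-HTP 2. RPP0 accounted for most, with 108 and 14 reads and 0 in the controls, each on its own strand. It was at least 4.06-fold higher than the limit, 1.01 without Seb1-HTP 1, 6.70 without Seb1-HTP 2 and 0.373 without control 2. All 122 RPP0 reads also named YLR339C, again a frame on the opposite strand by its identifier. The acidic stalk proteins RPP1A and RPP1B together had 7 Seb1-HTP reads and RPP2A and RPP2B had 5.

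Small-subunit members gave 9.57% (7.39 to 12.3) of member reads in Seb1-HTP 1 and 50.0% (46.8 to 53.2) in Seb1-HTP 2, so the balance of the subunits was not shared by the replicates. RPS4A had 0 reads in both controls, 10 in Seb1-HTP 1 and 161 in Seb1-HTP 2, all on its own strand. Its stretch X:701741-701795 held 94.7% of them, in 8 and 51 distinct intervals. The bound over the limit was 5.69-fold, 11.6 without Seb1-HTP 1, 0.621 without Seb1-HTP 2 and 0.522 without control 2. RPS9A had 16 reads in Seb1-HTP 1, 36 in Seb1-HTP 2 and 0 in either control, with 13 and 20 of them on its own strand, and it had 0 own-strand intervals of 35 nt or more. Its bound was 1.73, 2.59 without Seb1-HTP 1, 0.993 without Seb1-HTP 2 and 0.159 without control 2.

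RPS30B, with 8 and 10 reads and 0 in the controls, had 16.7% on its own strand. In RPS30B, as in RPL29, most reads therefore lay on the strand opposite to the mRNA. Reads in their main opposite-strand stretches were short, with medians of 20 nt for RPS30B and 30 nt for RPL29. The 8 RPS30B reads of Seb1-HTP 1 were 1 distinct interval.

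**Figure D3:**
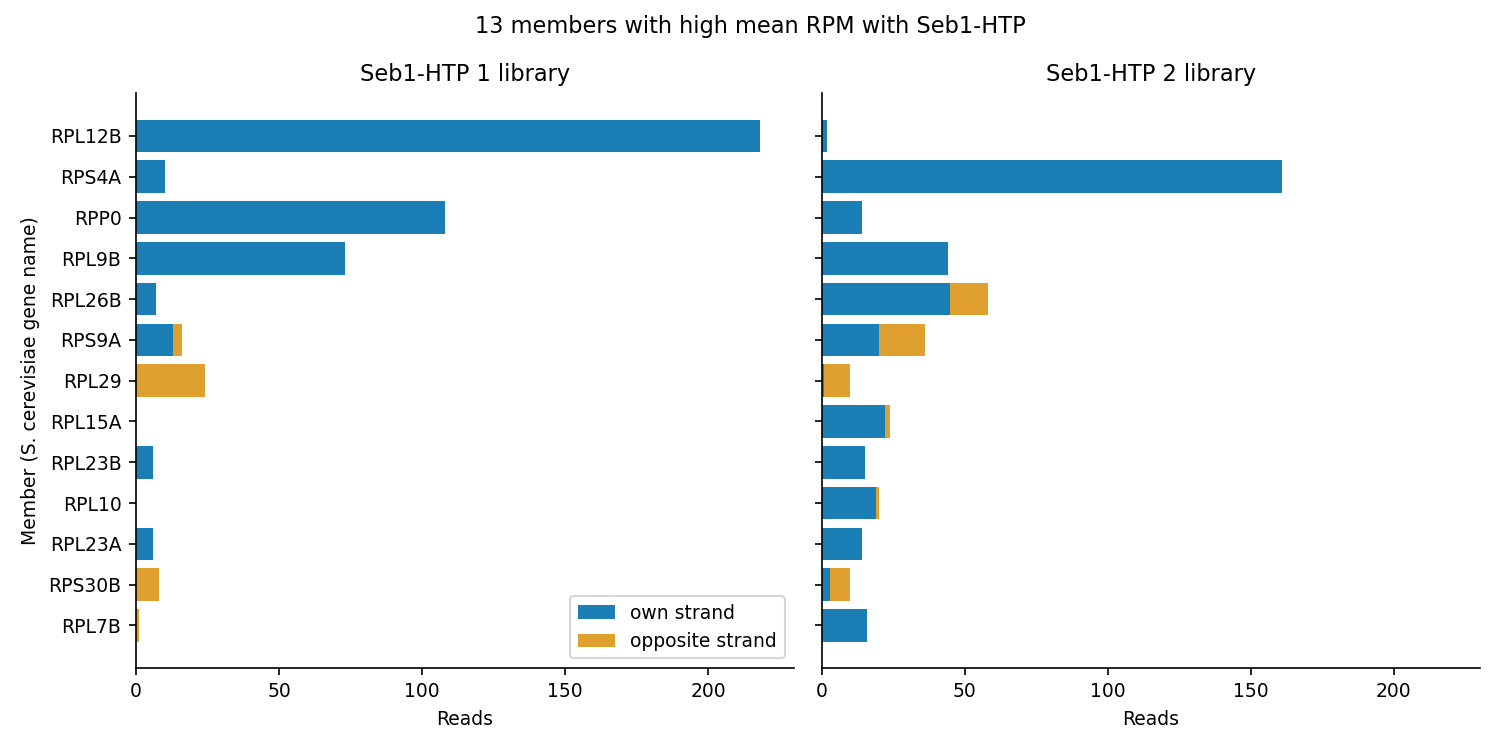
Reads of 13 of the 15 members with the highest mean RPM with Seb1-HTP, in the Seb1-HTP 1 library (left) and the Seb1-HTP 2 library (right), split by the gene's own strand and the opposite strand. RPL12B (218 against 2) and RPS4A (10 against 161) dominate different libraries, RPL9B (73 against 44) is high in both, and RPL29 and RPS30B lie mostly on the opposite strand.

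In the controls, 19 members had a read. Besides RPL10 and RPL7B they included RPS26A with 4 reads and RPL11B with 2, both in control 2, and RPS2 with 1 in control 1. A further 12 had 1 read each, all in control 2, namely RPL22A, RPL27A, RPL27B, RPL30, RPL38, RPL6B, RPL8A, RPS0B, RPS14B, RPS21A, RPS25B and RPS4B. RPS26A, whose protein lines the mRNA exit channel, had 0 and 7 reads with Seb1-HTP, a mean of 15.1 RPM against 44.1 RPM in the controls. Its 4 control reads were 1 distinct interval, while its 7 reads in Seb1-HTP 2 were 7 distinct intervals.

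The gene test read these counts against the spread between replicates over all features. edgeR's quasi-likelihood test with Benjamini-Hochberg adjustment called 10 of 1208 features (0.828%), 7 of them higher with Seb1-HTP (0.579%), and 0 of the 24 members that reached 10 reads. Of these 24, 18 had 0 reads in both controls, as had 69.1% of all features tested. The members with the smallest p were RPL12B, RPS4A and RPP0, each with an adjusted p of 0.634 in edgeR's test. DESeq2 called 3 features (0.248%) and 0 members. At an unadjusted p under 0.05, 0 of the 24 members passed with edgeR, beside 20 of all 1208 features. With DESeq2, 3 of the 24 members passed, beside 41 of the 1208 features. On data simulated with the common dispersion of these libraries, 2, given to every feature, the edgeR test called 0 of 47 features raised 64-fold. The real data gave 7 calls higher with Seb1-HTP, so the simulation does not show that no member could be called.

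Long member reads lay mostly on the gene's own strand. In Seb1-HTP 1, 424 of 425 member reads of 35 nt or more (99.8%, 98.7 to 99.96) lay on the gene's strand, and in Seb1-HTP 2, 493 of 554 (89.0%, 86.1 to 91.3). As distinct intervals these were 56 of 57 (98.2%, 90.7 to 99.7) and 316 of 365 (86.6%, 82.7 to 89.7). Frames other than ribosomal proteins, RRT15 and YLR162W, which lie on rDNA-like sequence, had 40.5% (36.8 to 44.3) and 59.7% (58.4 to 60.9) of such intervals on their own strand. The difference was 57.8 percentage points (49.3 to 61.7, Newcombe interval) in Seb1-HTP 1 and 26.9 points (22.8 to 30.2) in Seb1-HTP 2. The rules for members and other frames were not the same. A member record was scored by its member's strand, even where it also named a frame on the other strand. All RPL12B and RPP0 reads with Seb1-HTP were of this kind. Records naming other frames on both strands were left out. In the controls the interval of this difference in distinct intervals held 0, while in reads it was 69.3 points (3.13 to 75.6) in control 1, from 2 member reads, and 9.73 points (-13.3 to 25.2) in control 2. Control 1 had 2 of 2 distinct member intervals on the own strand and 41.0% of other frames, a difference of 59.0 points (-7.41 to 68.0). Control 2 had 11 of 16 (68.8%, 44.4 to 85.8) and 64.6% of other frames, a difference of 4.15 points (-20.8 to 22.2). The Seb1-HTP and control shares of members overlapped (exact permutation p = 1.0).

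Short member intervals leaned less to the own strand. Under 35 nt, 65.3% (54.1 to 75.1) and 60.7% (54.2 to 66.9) of distinct member intervals were on the own strand in Seb1-HTP 1 and 2, against 47.5% and 49.8% for other frames. Of member reads, 76.7% and 61.7% had 35 nt or more in Seb1-HTP 1 and 2, against 22.8% and 36.3% of reads on other frames. In control 1 the shares were 100% of 2 member reads and 73.6% on other frames, and in control 2 they were 65.5% and 64.8%.

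**Figure D4:**
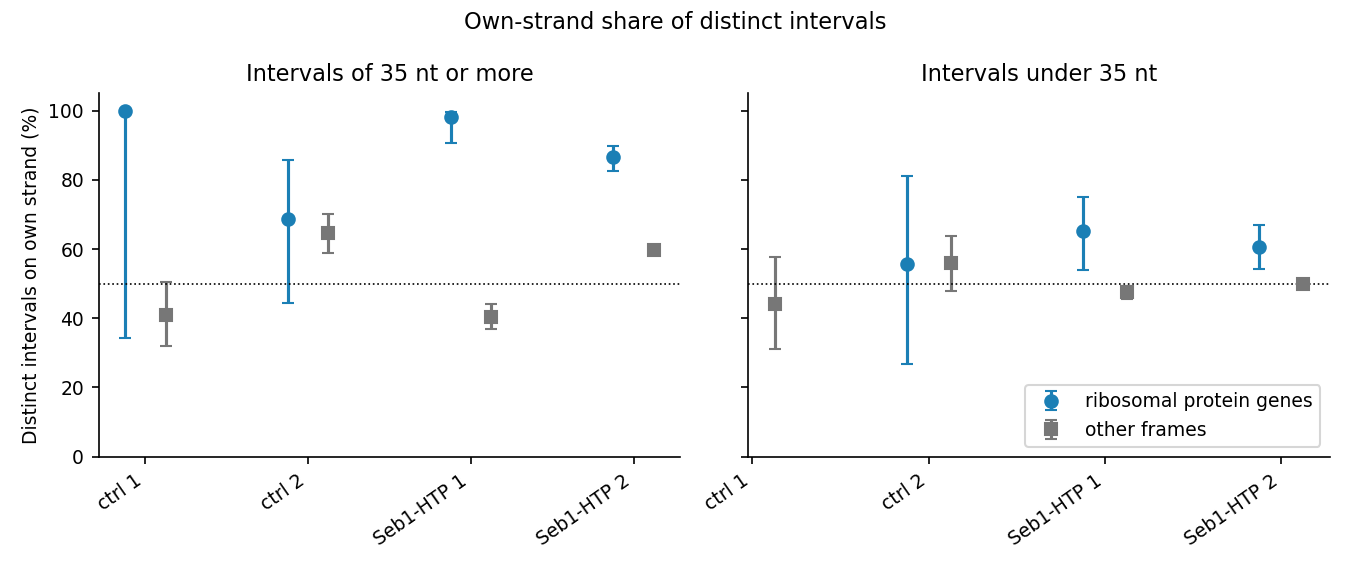
Percent of distinct intervals on the gene's own strand in each library, for ribosomal protein genes (circles) and other frames (squares), with 95% Wilson intervals, for intervals of 35 nt or more (left) and under 35 nt (right). The dotted line marks 50%. Long member intervals lie at 98.2% and 86.6% in the Seb1-HTP libraries, above other frames at 40.5% and 59.7%.

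Reads on members gathered in few places. Overlapping intervals on 1 strand of a member were joined into 372 stretches, of which 246 held 1 read and 19 held 10 or more. Those 19 held 933 of 1491 reads, counting a read for each member it named: 87.4% of the Seb1-HTP 1 reads and 48.8% of the Seb1-HTP 2 reads. Of the 19, 11 lay on the own strand, 12 had reads in both Seb1-HTP libraries, and 2, both on the opposite strand, had a control read. Over all stretches 26 had reads in both Seb1-HTP libraries, on 20 members, and 20 of the 26 lay on the own strand. Among copies, RPL12 reads with Seb1-HTP fell 97.3% on the B copy, RPS4 reads 97.7% on the A copy and RPL9 reads 91.4% on the B copy, while RPL23 (20 and 21 reads) and RPL7 (15 and 17) were shared evenly. Where copies are nearly identical the placement of a read between them is uncertain.

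Most long own-strand intervals differed from the S. cerevisiae sequence. Of the distinct intervals of 35 nt or more on a member's own strand, 5.36% of 56 (1.84 to 14.6) in the first Seb1-HTP library and 13.6% of 316 (10.3 to 17.8) in the second had no recorded substitution or deletion, and 78.6% and 58.2% had 3 or more. Own-strand intervals on other frames had none in 6.72% and 17.8% and 3 or more in 60.8% and 44.4%. For rDNA, where S. pombe and S. cerevisiae sequence is also alike but not equal, none was recorded in 8.11% and 9.14%. For U2 snRNA, named LSR1, it was 26.0% and 20.8%. Controls 1 and 2 had no recorded difference in 1 of 2 and 2 of 11 own-strand member intervals of this length. On other frames the control shares were 18.6% of 43 and 41.2% of 177, and for rDNA 6.59% and 9.67%.

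The differences were not spread evenly over member stretches. Inside the stretches with 10 or more reads, 0 of 41 distinct own-strand intervals in Seb1-HTP 1 (a Wilson upper bound of 8.57%) and 10 of 82 in Seb1-HTP 2 had at most 1 difference. Outside them it was 7 of 15 (46.7%, 24.8 to 69.9) and 81 of 237 (34.2%, 28.4 to 40.4). The inside intervals came from 7 and 9 members and the outside ones from 12 and 98. Intervals of 1 stretch overlap and can share sites, and the Wilson intervals do not cover this dependence. Substitutions per 100 nt were 9.44 and 8.46 inside and 4.44 and 5.14 outside. Control 2 had 11 such intervals, all outside, with 3.58 substitutions per 100 nt, and 6 of the 11 had at most 1 difference. The intervals with at most 1 difference lay on many members, and their source was not tested.

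**Figure D5:**
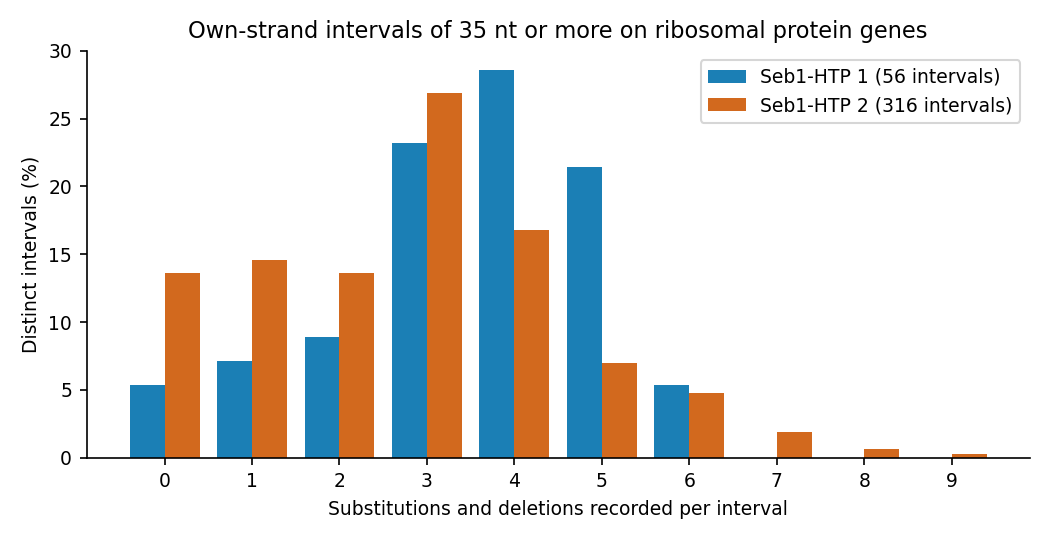
Substitutions and deletions recorded in each distinct own-strand interval of 35 nt or more on ribosomal protein genes, as percent of the 56 such intervals in Seb1-HTP 1 and the 316 in Seb1-HTP 2. Intervals with 3 or more differences make up 78.6% and 58.2%, and those with none 5.36% and 13.6%.

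Own-strand shares of the other lists ranged widely, and differences between lists were not tested. Over both Seb1-HTP libraries, distinct intervals of 35 nt or more lay on the own strand in 98.6% (95.9 to 99.5) of 213 for glycolysis, 95.4% (91.8 to 97.5) of 218 for chaperones, 92.3% (87.3 to 95.4) of 169 for translation factors and 86.8% (72.7 to 94.2) of 38 for histones. For mitochondrial ribosomal proteins the share was 56.8% (40.9 to 71.3) of 37, and for ribosome assembly factors 27.7% (22.0 to 34.1) of 206. Shares above 90% were thus seen outside ribosomal proteins. Translation factors had 0 and 12 control reads against 74 and 470 Seb1-HTP reads, glycolysis 4 and 26 against 26 and 292, and chaperones 2 and 11 against 39 and 372. For glycolysis the control libraries gave 874 and 573 RPM against 97.0 and 1260 RPM, so its groups overlapped. Chaperones overlapped too, at 437 and 243 RPM against 146 and 1606 RPM. So did mitochondrial ribosomal proteins, at 437 and 44.1 RPM against 272 and 790 RPM. The other lists did not overlap, among them translation factors, at 0 and 265 RPM against 276 and 2029 RPM.

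TEF1 and TEF2, the copies of elongation factor 1A, had 0 reads in control 1 and 5 and 1 in control 2. They had 2 and 3 reads in Seb1-HTP 1 and 92 each in Seb1-HTP 2. Of the Seb1-HTP reads of each, 98.9% lay on the own strand. TIF5, an initiation factor, had 26 and 30 reads with Seb1-HTP, 64.3% of them on the own strand. PGK1, a glycolytic kinase, had 2 and 9 control reads against 2 and 68 Seb1-HTP reads, all of the latter on its own strand. PDC1, pyruvate decarboxylase, had 0 and 3 control reads against 1 and 35 tagged ones, the latter 94.4% on the own strand, and ENO2, an enolase, had 1 and 3 against 9 and 27, with 100%. HSP82 and SSA1, cytosolic chaperones, had 8 and 79 and 5 and 78 reads, on the own strand in 97.7% and 98.8%, and SSA4, of the same family as SSA1, had 4 and 53 with 100%. Among assembly factors DBP2, an RNA helicase, had 153 and 296 reads with 26.5% on its own strand, and NSR1, a nucleolar protein, 3 and 37 with 12.5%, while DRS1, another helicase, had 0 and 29 with 96.6%. RSM25, of the mitochondrial small subunit, had 21 and 67 reads with 13.6%. MRPL17, of the mitochondrial large subunit, had 29 and 18 with 17.0%, and MRPS16, of the small subunit, had 8 and 15 with 91.3%. Of the regulators of ribosomal protein genes, IFH1 had 4 and 25 reads with 17.2% on its own strand, CRF1 had 1 and 9 with 80.0%, and HMO1 had 7 and 1 with 87.5%. The histone genes HHF2, HTA1 and HHT1 had 0, 1 and 0 reads in Seb1-HTP 1 and 12, 11 and 11 in Seb1-HTP 2. edgeR tested 15 translation factors, 12 assembly factors, 2 regulators, 11 glycolysis, 11 chaperone, 3 histone and 4 mitochondrial ribosomal protein genes, and called 0 of them at an adjusted p under 0.05.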

How the data were processed

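CRAC reads were counted in 2 untagged control and 2 Seb1-HTP libraries. The deposited files hold read counts per mapped interval, written by Counters 1.4.2 per the file headers. The submitters' processing notes name Novoalign 2.0.4 and ASM294v2, an S. pombe build, although the records lie on S. cerevisiae chromosomes. No source used here says if repeats of a read were merged. A read was counted for each feature its record named. A gene's strand was read from the last letter of its identifier, W plus and C minus. Features reaching 10 reads in all were tested with edgeR 4.0.16 (R 4.3.3) on library totals of named reads, at an adjusted p of 0.05. DESeq2 1.42.0 was an alternative. Shares carry 95% Wilson intervals and were compared with exact permutation tests (two-sided). S. pombe sequences came from RefSeq (ASM294v3). Members and lists were chosen with earlier results of these data known.

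Members named with values were the 15 with the highest mean RPM with Seb1-HTP, those with a control read, the 10 with the most own-strand intervals of 35 nt or more, and the 3 with the smallest p. A pair of members that this rule names is not reported here and is kept in the counts alone. The 3 genes with the highest mean RPM were named from each other list. The analysis was tested on simulated data in which every feature had the same dispersion. At a dispersion of 0.1 the edgeR step called 34 of 50 features raised 64-fold. At the common dispersion of these libraries, 2, it called 0 of 47.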

Additional observations from a re-analysis of the deposited data

How the results depend on the processing

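The ratio of mean member RPM stayed above 1 under every alternative tried, from 1.63 (totals without rRNA and tRNA) to 7.64 (records naming 1 member alone), and from 3.84 to 7.24 when a library was left out. Omitting the 4 stretches with the most reads, an alternative chosen after seeing the data, gave 3.31. The mean own-strand share of member reads of 35 nt or more with Seb1-HTP was 94.4%, and 86.1% among reads with no recorded difference. The mean share of member reads past the length minimum was 69.2% at 35 nt, 84.4% at 25 nt and 50.4% at 40 nt. Features called higher numbered 7, but 0 with TMM factors, with records naming 1 feature, with distinct intervals and with totals without rRNA and tRNA, 3 with DESeq2, and 0 to 8 with a library left out. Features called lower numbered 3, but 0 with TMM factors, DESeq2, records naming 1 feature and distinct intervals, and 3 to 4 with a library left out. Members called were 0 under each, with a smallest member adjusted p between 0.0734 and 0.830. With the replicate block 5 features were higher, 3 lower and 0 members called. Replicate numbers gave no sign of pairing (r = 0.0549 between the numbers' deviations over 1208 features, 1 correlation). Ribosomal proteins with 10 or more reads numbered 24, or 28 with A and B copies summed.

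The log2 fold changes of some members with control reads changed sign, none of them called, and the cause was not tested. RPL10 went from 0.35 to -0.64 (DESeq2), -1.09 (distinct intervals) and -1.73 (totals without rRNA and tRNA), and RPL22A from 0.24 to -0.49, -0.43 and -1.77. RPL7B went from -1.24 to 0.080 with records naming 1 feature. With a library left out, values ran from -0.035 to 5.88 for RPL10, -0.056 to 4.88 for RPL22A and -2.57 to 0.70 for RPL7B. Limits include depth, since control 1 held 2 member reads and 100 members had fewer than 10 reads in all, and the spread between replicates, at a dispersion of 2.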

Other observations

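As distinct intervals, members had a lower share of 35 nt or more with Seb1-HTP than in the controls, and so had other frames. For members the share was 100% of 2 and 64% (44.5 to 79.8) of 25 in the controls, and 43.2% (35 to 51.7) of 132 and 62.2% (58.2 to 66.0) of 592 with Seb1-HTP. The groups did not overlap (exact two-sided permutation p = 0.333, the smallest that 2 against 2 libraries allow), and control 1 gave 2 intervals. In reads the groups overlapped, at 100% and 65.5% against 76.7% and 61.7% (exact permutation p = 0.667). On other frames the share of distinct intervals was 68.6% and 65.6% for controls 1 and 2, against 18.0% and 39.3% for the tagged libraries.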
